A study of Homo sapiens with 9 samples.

Results

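The comparison described here set human naive pluripotent stem cells in which Polycomb repressive complex 2 (PRC2) had been blocked by either of a pair of compounds against cells given vehicle alone. The cells were HNES1, an established embryo-derived naive line of wild-type genotype, grown for 5 days in the transition out of naive pluripotency in N2B27 medium with the tankyrase inhibitor XAV939. The DMSO group received vehicle. The PROTAC group received 2.5 µM UNC6852, which recruits the VHL ubiquitin ligase to the PRC2 subunit EED and so degrades it, and the UNC group received 1 µM UNC1999, which blocks the catalytic subunits EZH2 and EZH1. Each compound was given from 24 hours before the medium change that started the transition and was renewed daily, and each group had 3 libraries from experiments carried out independently 3 times. All 9 libraries of the series entered the comparison: the mean of the 3 PROTAC and 3 UNC libraries was set against the 3 DMSO libraries, with the experiment number held constant. The doses of the compounds differed, and all groups came from 1 cell line.

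PRC2 is a histone methyltransferase that places methyl groups on lysine 27 of histone H3, a mark of repressed genes. EZH2 or its relative EZH1 carries the catalytic site, EED binds the finished mark and is needed for activity, and SUZ12 holds the core together. Many targets of the complex are promoters rich in CG dinucleotides that belong to regulators of development, and in human naive cells PRC2 has been described as a barrier to trophoblast differentiation.

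The response of both compounds together was broad and small in size. Of 24187 genes tested, 2684 (11.1%) passed a false discovery rate of 0.05 in edgeR's quasi-likelihood test, 1488 of them higher (6.15%) and 1196 lower (4.94%) than in DMSO. The median log2 fold change was 0.22 among the genes that rose and -0.35 among those that fell. Only 15 genes rose and 76 fell by at least 2-fold. The lead homeobox gene ARGFX rose by a log2 fold change of 1.40, and CSMD1, which encodes a membrane protein that restrains complement, changed by -1.75. Stress response and sterol synthesis genes rose in number, whereas trophoblast genes and genes of the contractile cytoskeleton fell in number, as described by group below. These falls were larger under UNC. The median log2 fold change of trophoblast genes was -0.17 under PROTAC and -0.63 under UNC. That of contractile and fibroblast genes was -0.02 and -0.32.

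The count of calls depended on holding the experiment number constant. Without that block the same model called 15 genes higher and 13 lower, and all 28 were among the 2684. The block was part of the planned comparison, because the experiment was carried out independently 3 times. Around the means of their groups, libraries that carried the same number shared their deviations (all 9 correlations were between 0.106 and 0.472). The number of calls also moved with single libraries. Without DMSO library 3 the comparison called 671 genes higher and 537 lower, without DMSO library 2 it called 915 and 671, and without UNC library 2 it called 962 and 749. Without DMSO library 1 it called 934 higher and 860 lower. Without all libraries numbered 2 the counts were 500 and 404, and without those numbered 3 they were 714 and 599. No call that could be tested again in these fits changed sign. The split between directions moved with the scaling. Of the calls, 55.4% were higher under the scaling used (TMM) and 58.2% under RLE scaling (1598 higher, 1150 lower). The share was 44.8% under upper-quartile scaling (1146 higher, 1412 lower) and 40.6% by library size alone (1026 higher, 1498 lower). In DESeq2, a different test that gave no adjusted p for 6565 genes, it was 63.7% (1646 higher, 936 lower).

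**Figure D1:**
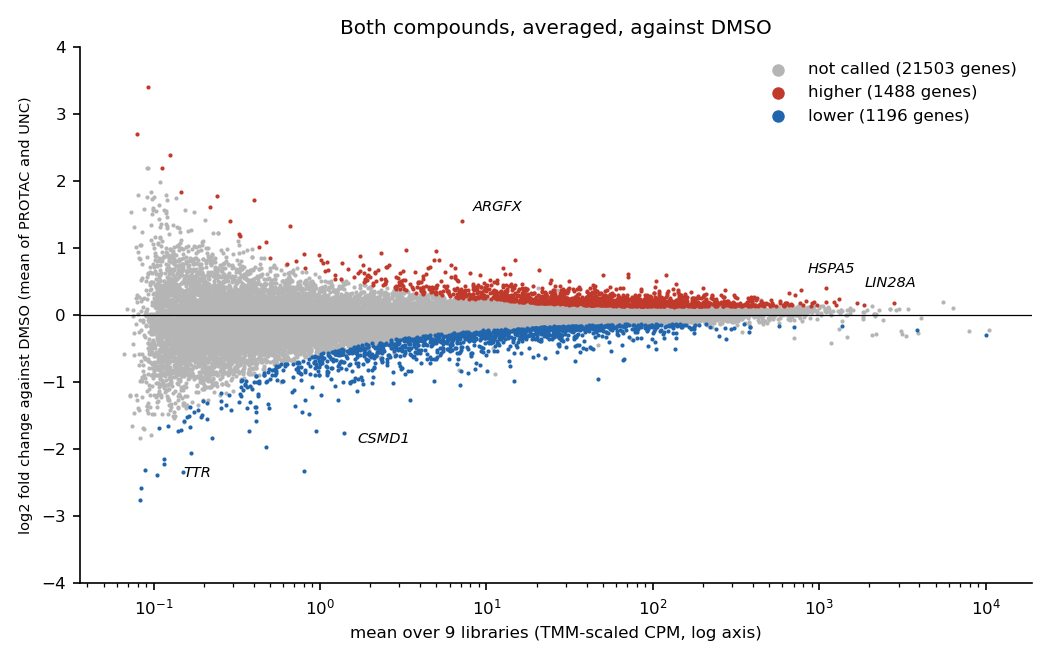
Each point is 1 of the 24187 genes tested, with its average abundance on the horizontal axis and the log2 fold change of the mean of PROTAC and UNC against DMSO on the vertical axis. The 1488 genes that rose lie mostly at high abundance and at small fold changes, and the 1196 genes that fell reach lower abundance and larger changes.

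The effects of each compound were then set side by side. A gene was counted as similar when the PROTAC and UNC effects differed by no more than their mean, so that each compound had 0.5 to 1.5 times the mean effect. This held for 1415 of the 1488 genes that rose (95.1%) and 957 of the 1196 that fell (80.02%). These shares are a description only, because a call requires a large mean effect and the same DMSO libraries enter both effects, which both favour likeness. The difference between the compounds compares no DMSO library, although its spread was estimated from all 9 libraries. In the test of that difference, 369 of the 2684 genes (13.7%) differed, against 703 (2.91%) of all genes tested. Without DMSO library 1 that test called 924 genes. Among the genes that rose, the UNC effect was the larger in 102 and the PROTAC effect in 13. Among those that fell, the UNC effect was the larger in 254. The median log2 fold change of the genes that rose was 0.19 under PROTAC and 0.25 under UNC, and that of the genes that fell was -0.25 and -0.45.

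The direction of the calls moved with abundance. Of genes averaging at least 100 CPM (counts scaled by TMM to a common library total), 17.8% were called higher and 2.87% lower, whereas of genes between 1 and 3 CPM 1.75% were higher and 7.62% lower. Calls of a fall were most frequent between 3 and 10 CPM (9.44%). The median standard error was 0.0964 in that range and 0.0447 at 100 CPM and above, and its part in this pattern was not tested. The base composition of the transcript also moved with the calls. Of genes whose longest transcript had under 40% GC, 15.2% were higher and 1.76% lower, and of those with at least 60% GC, 2.14% were higher and 7.93% lower. The pattern was the same among genes of at least 10 CPM, with 23.0% against 3.64% higher and 1.33% against 8.003% lower. Chromosome 19 had 1.92% of its tested genes higher and chromosome 4 had 11.7%. With each library's trend against GC and length taken out, a fit chosen after seeing the data, 1284 genes were higher and 1152 lower. Of the 2526 calls that could be retested, 1878 were called again. In that fit 4.47% of the genes tested on chromosome 19 and 9.53% of those on chromosome 4 were higher. Protein-coding genes were called higher in 9.05% and lower in 5.41% of cases, and long intergenic noncoding RNAs in 0.843% and 5.30%. The shares of all genes given beside the lists below were not matched for abundance or base composition.

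**Figure D2:**
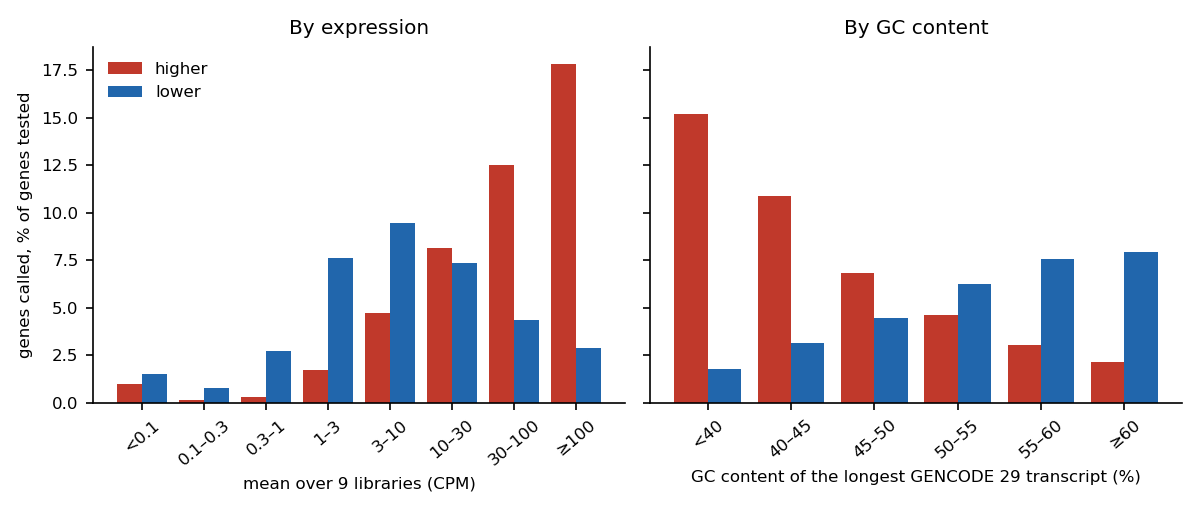
Percent of tested genes called higher and lower in bins of mean CPM and of transcript GC content. Calls of a rise increase with abundance to 17.8% at 100 CPM and above and decrease with GC from 15.2% to 2.14%, and calls of a fall increase with GC from 1.76% to 7.93%.

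The 9 libraries held 31651742 to 101081643 counts, of which 3.21% to 5.12% came from mitochondrial genes. The pluripotency markers POU5F1 (677 to 792 CPM), NANOG (431 to 528 CPM) and LIN28A (1480 to 1983 CPM) were present in every library, as were the naive markers DPPA3 (491 to 650 CPM) and SUSD2 (263 to 359 CPM) and the primed marker SFRP2 (92.7 to 112 CPM). OTX2, a regulator of the exit from naive pluripotency, stayed between 0.812 and 1.96 CPM. Because these are bulk samples, fewer cells of a type and less RNA per cell cannot be told apart.

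Transcripts of the targeted complex are given first. EED had 11.1, 11.3 and 12.5 CPM in the DMSO libraries, 12.4, 12.03 and 12.7 CPM under PROTAC and 12.2, 12.8 and 11.3 CPM under UNC. These groups overlapped, and EED did not pass (0.07 on the log2 scale, SE 0.0728, adjusted p = 0.605). PROTAC acts on the EED protein and UNC1999 on catalysis, so the transcripts do not check either treatment. EZH2 rose by 0.19 (log2, SE 0.0552, adjusted p = 0.0229), with effects of 0.13 under PROTAC and 0.24 under UNC. That call was lost with library-size scaling (adjusted p = 0.0626), upper-quartile scaling (adjusted p = 0.0549), thinned counts (adjusted p = 0.0601), the GC and length correction (adjusted p = 0.121) and without the block (adjusted p = 0.453). SUZ12 (0.08, adjusted p = 0.291) and EZH1 (-0.05, adjusted p = 0.606) did not pass.

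Of 13 subunits and cofactors of PRC2, 2 rose (15.4%, against 6.15% of all genes). The other was RBBP4, the histone-binding subunit (0.14, SE 0.0451), whose call was also lost with library-size and upper-quartile scaling and with the GC and length correction. Neither was called without DMSO library 2, DMSO library 3, PROTAC library 3 or UNC library 2. Of 28 subunits of PRC1, the complex that binds the mark, 1 rose (3.57%) and 3 fell (10.7%, against 4.94% of all genes). USP7, a deubiquitinase that associates with PRC1, rose by 0.16. PHC2 (-0.45), PCGF5 (-0.44) and CBX7 (-0.19) fell, and 0 of the 3 passed without DMSO library 1 or DMSO library 3. Of 12 enzymes that erase, compete with or counter the mark, 1 rose and 1 fell (8.33% each, against 6.15% and 4.94% of all genes). KDM6B, a demethylase of the mark, was at 42.0, 51.9 and 50.6 CPM in DMSO, 45.1, 59.5 and 56.2 CPM under PROTAC and 52.1, 71.0 and 72.2 CPM under UNC. Its rise of 0.29 (log2, SE 0.0486) had an adjusted p of 8.3e-05, and the UNC effect (0.42) exceeded the PROTAC effect (0.15). NSD1, a methyltransferase of lysine 36 on the same histone, changed by -0.14 (SE 0.0442, adjusted p = 0.0406).

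Promoters are shown for the first pair of rises and the first pair of falls that had an entry in the RefSeq promoter table, because PRC2 favours promoters rich in CG dinucleotides. Each sequence is the 250 bases before the annotated start, 5′ to 3′ on the gene's strand (GRCh38.p14), with every CG in capitals.
DSG3 (rose; chr18:31447491-31447740, plus strand): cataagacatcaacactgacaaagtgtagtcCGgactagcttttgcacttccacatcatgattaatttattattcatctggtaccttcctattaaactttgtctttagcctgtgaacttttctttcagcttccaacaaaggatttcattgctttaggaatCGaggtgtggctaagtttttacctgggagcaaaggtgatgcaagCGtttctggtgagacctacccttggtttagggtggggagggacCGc
MGAM (rose; chr7:141995629-141995878, plus strand): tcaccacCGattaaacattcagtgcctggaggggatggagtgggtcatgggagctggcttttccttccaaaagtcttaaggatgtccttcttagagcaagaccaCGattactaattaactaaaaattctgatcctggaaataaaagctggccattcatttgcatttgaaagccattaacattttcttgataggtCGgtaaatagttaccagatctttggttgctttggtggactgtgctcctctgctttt
LRRN2 (fell; chr1:204685739-204685988, minus strand): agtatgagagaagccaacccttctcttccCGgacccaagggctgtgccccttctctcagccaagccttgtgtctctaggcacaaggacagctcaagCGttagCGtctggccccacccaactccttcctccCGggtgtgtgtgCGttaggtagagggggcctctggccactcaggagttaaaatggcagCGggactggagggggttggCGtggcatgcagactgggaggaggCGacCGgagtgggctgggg
CCDC141 (fell; chr2:179050138-179050387, minus strand): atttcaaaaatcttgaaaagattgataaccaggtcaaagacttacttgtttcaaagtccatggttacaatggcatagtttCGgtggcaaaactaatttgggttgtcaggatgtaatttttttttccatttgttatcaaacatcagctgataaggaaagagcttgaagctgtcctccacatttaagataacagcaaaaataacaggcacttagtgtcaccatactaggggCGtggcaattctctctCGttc
The letters CG, which read the same on both strands, occurred 4 times in the DSG3 window, 3 times in that of MGAM, 9 times in that of LRRN2 and 3 times in that of CCDC141, against a median of 20 over the promoters of the genes tested. These 4 do not stand for the leading genes: over the 18 leading rises and falls with an entry the count ran from 3 to 42, with 41 in EFNA5 and CACNA1D and 42 in TMEM151A. The RefSeq start of MGAM lies inside the span that the count table gives for it, from 141907813 to 142106747 on chromosome 7. A promoter was matched for 77.5% of the genes that rose and 61.3% of those that fell, which is too few, and a comparison of CG counts between the sets is therefore void. ARGFX, TWIST1, CSMD1, CLEC9A and CYP24A1 had no entry.

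The leading rises were taken among genes with a symbol, at least 1 CPM, an effect of similar size under both compounds and no overlap between the 6 treated and the 3 DMSO libraries. Over all genes tested, 1411 (5.83%) had no such overlap. ARGFX (chromosome 3, 121567949 to 121590622 on GRCh38), a homeobox gene of the early embryo, was at 2.65, 3.33 and 4.22 CPM in DMSO. It was at 6.26, 7.30 and 8.27 CPM under PROTAC and at 8.32, 11.9 and 12.3 CPM under UNC. Every treated library thus lay above every DMSO library, and the UNC libraries were the highest. The log2 fold change was 1.40 (SE 0.0963, adjusted p = 2.47e-12), 1.12 under PROTAC and 1.68 under UNC, and the compounds differed (adjusted p = 0.000317).

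DSG3, an adhesion protein of desmosomes, had 2.32, 3.399 and 3.44 CPM in DMSO, 4.47, 5.00 and 4.67 CPM under PROTAC and 6.92, 7.45 and 7.37 CPM under UNC. It rose by 0.96 (SE 0.108, adjusted p = 8.71e-08), and the 3 groups were fully separate, with UNC above PROTAC. EFNA5, an ephrin ligand that guides migrating cells and axons, had 3.34, 3.35 and 3.56 CPM in DMSO, 6.32, 5.29 and 4.04 CPM under PROTAC and 7.26, 7.47 and 5.75 CPM under UNC. It rose by 0.82 (SE 0.109, adjusted p = 2.52e-06).

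TWIST1, a basic helix-loop-helix factor of mesenchyme, rose by 0.72 (SE 0.136), with 0.61 under PROTAC and 0.83 under UNC. HNF4A, a nuclear receptor that directs liver development, rose by 0.71 (SE 0.107), and here the UNC effect of 0.98 exceeded the PROTAC effect of 0.44. An antisense gene overlaps HNF4A, and since the strand setting of the counting is not given in the sources used here, their reads cannot be told apart. Further leading rises were MGAM, an intestinal maltase (0.90), EGFLAM, an extracellular matrix protein (0.89), PLCH1, a phospholipase (0.75), TMEM45A (0.74), FAM13A (0.71) and the noncoding RNA LINC01500 (0.70). Of these 11 genes, DMSO means exceeded 4 CPM only in PLCH1, FAM13A and LINC01500, so the largest fold changes belong to genes at low levels. In the fit without the block, ARGFX, DSG3 and LINC01500 passed, and the other 8 did not. The gap between compounds is shown for these genes in the plot of effects by compound.

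**Figure D3:**
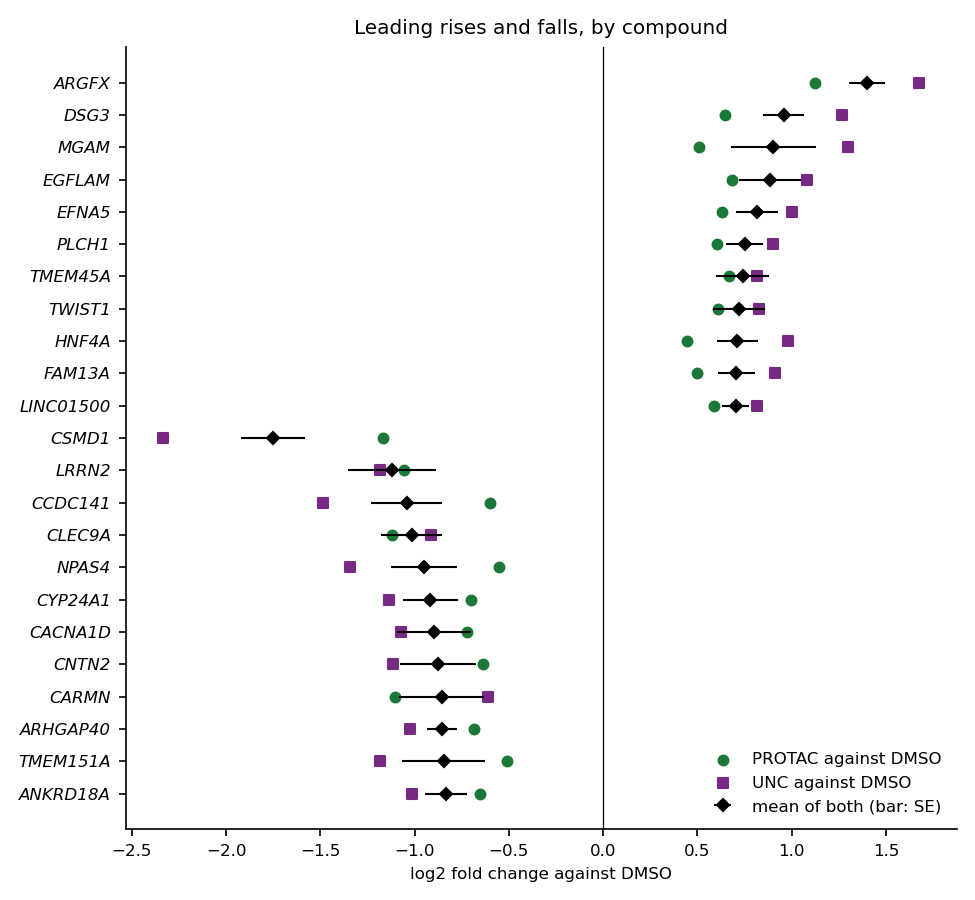
Log2 fold change against DMSO of 11 leading rises and 12 leading falls, as the PROTAC effect (circles), the UNC effect (squares) and their mean (diamonds, with its standard error as a bar). ARGFX stands at 1.12 under PROTAC and 1.68 under UNC, and CSMD1 at -1.17 and -2.33.

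The leading falls were chosen in the same way, and 4 of them, against 1 of the rises, passed 2-fold. CSMD1 (chromosome 8, 2935353 to 4994972) had 3.34, 2.09 and 2.10 CPM in DMSO, 1.56, 0.728 and 1.199 CPM under PROTAC and 0.818, 0.255 and 0.420 CPM under UNC. The treated libraries were all below the DMSO libraries, and the UNC libraries of each experiment were below the PROTAC ones. The log2 fold change was -1.75 (SE 0.171, adjusted p = 3.88e-09). LRRN2, a leucine-rich repeat membrane protein of neurons, had 0.773, 0.986 and 1.51 CPM in DMSO, 0.507, 0.364 and 0.726 CPM under PROTAC and 0.568, 0.306 and 0.508 CPM under UNC. Its fall of -1.12 (SE 0.235, adjusted p = 0.0012) was close under both compounds, at -1.05 and -1.18.

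CYP24A1, the enzyme that inactivates vitamin D, had 2.40, 2.75 and 2.45 CPM in DMSO, 1.27, 1.89 and 1.58 CPM under PROTAC and 0.962, 1.38 and 1.16 CPM under UNC. Its fall was -0.92 (SE 0.147, adjusted p = 3.84e-05). ARHGAP40, a GTPase-activating protein, had 13.0, 10.2 and 9.47 CPM in DMSO, 8.37, 5.74 and 6.37 CPM under PROTAC and 6.87, 4.46 and 4.78 CPM under UNC. Libraries numbered 1 were the highest in each group, and within every experiment both treated libraries lay below DMSO. The log2 fold change of ARHGAP40 was -0.85 (SE 0.0813, adjusted p = 2.34e-09). CLEC9A, a lectin receptor of dendritic cells (-1.02), and CARMN, a long noncoding RNA of smooth muscle and heart (-0.86), had larger values under PROTAC (-1.12 and -1.10) than under UNC (-0.91 and -0.61), differences that did not pass the test between compounds. The others were CCDC141 (-1.04), which overlaps TTN, the activity-induced factor NPAS4 (-0.95), the calcium channel gene CACNA1D (-0.90), the neuronal adhesion gene CNTN2 (-0.88), TMEM151A (-0.85) and ANKRD18A (-0.83). None of the 12 passed without the block in edgeR, although all 12 fell in 6 of 6 pairs of a treated library with the DMSO library of its number, which the rule of no overlap fixes.

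The 28 genes called with and without the block were named after their values were seen, apart from those that the naming rule already gave. SMARCA2, an ATPase of the SWI/SNF remodelling complexes that oppose Polycomb, had 52.5, 49.6 and 52.9 CPM in DMSO, 72.1, 67.1 and 70.8 CPM under PROTAC and 97.1, 81.3 and 92.2 CPM under UNC. It rose by 0.62 (SE 0.0473, adjusted p = 1.47e-11), with no overlap between any 2 of the 3 groups. DACT1, an antagonist of Wnt and TGF-beta signalling, had 97.5, 81.5 and 85.8 CPM in DMSO, 126, 108 and 112 CPM under PROTAC and 161, 149 and 152 CPM under UNC, a rise of 0.60 (SE 0.0446). Its gene overlaps LINC01500, so the rise of that RNA and the rise of DACT1 may share reads. ULBP1, a ligand of the natural killer cell receptor NKG2D, differed from these in having near-equal effects, 0.52 under PROTAC and 0.51 under UNC. Its levels were 23.0, 27.7 and 22.7 CPM in DMSO, 35.0, 36.6 and 33.7 CPM under PROTAC and 31.5, 37.5 and 35.5 CPM under UNC.

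Further rises that passed both fits were HTR1D, a serotonin receptor (0.67), BBX (0.51), COL6A1, a collagen VI chain (0.46), FGF4 (0.41), LRIG1, a brake on receptor tyrosine kinases (0.39), the proprotein convertase PCSK5 (0.38), the peroxidase GPX8 (0.38), the uridine kinase UCK2 (0.37) and the cholesterol exporter ABCA1 (0.34). Falls that passed both fits were the laminin chain LAMB3 (-0.42), the YAP regulator AMOTL2 (-0.46), ZIC2 (-0.47), the gelatinase MMP2 (-0.50), PLEKHA6 (-0.57), ENTREP1 (-0.74), TMEM130 (-0.82), LINC01356 and 5 entries without a symbol. LINC01356 was at 90.8, 85.3 and 86.3 CPM in DMSO, 66.4, 66.8 and 60.6 CPM under PROTAC and 43.3, 47.9 and 50.8 CPM under UNC. Its change of -0.66 had an SE of 0.05 and an adjusted p of 1.78e-11, and it had the smallest adjusted p without the block, 0.00329. The plot by library shows 10 genes of the text.

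**Figure D4:**
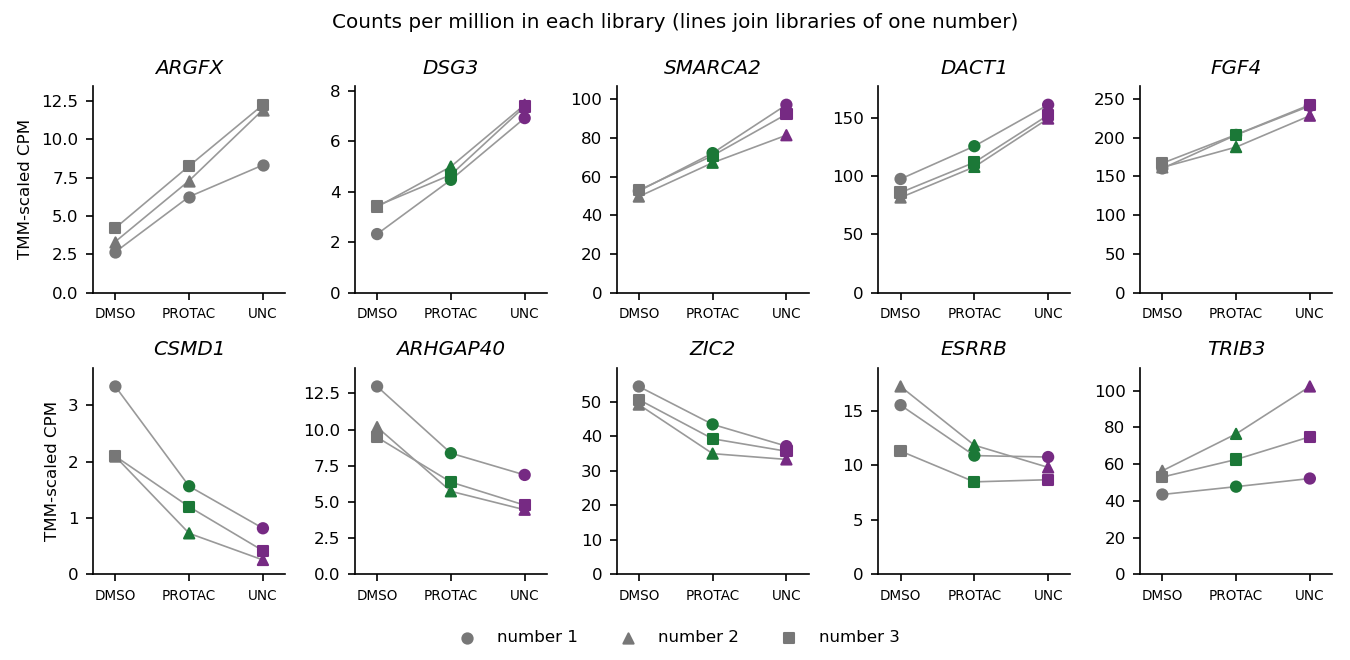
CPM of 10 genes in each of the 9 libraries, grouped as DMSO, PROTAC and UNC, with a symbol per experiment number, lines joining libraries of the same number and a linear axis from 0 for each gene. FGF4 stands at 160 to 167 CPM in DMSO, 188 to 204 under PROTAC and 228 to 243 under UNC, while TRIB3 overlaps between groups and follows the experiment number.

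Among 19 tested genes of general pluripotency, 6 rose (31.6%, against 6.15% of all genes tested). Most of the 19 averaged over 100 CPM, a level at which 17.8% of all genes were higher. The list's median log2 fold change was 0.07, against -0.01 over all genes. SOX2, a core factor of the pluripotency network, had 100.6, 92.6 and 104 CPM in DMSO, 134, 105 and 116 CPM under PROTAC and 124, 105 and 130 CPM under UNC. It rose by 0.26 (SE 0.0478, adjusted p = 0.000223). PRDM14, a repressor that guards pluripotency, rose by 0.26, GDF3, a TGF-beta family ligand, by 0.21, LIN28A by 0.18, EPCAM by 0.16 and LIN28B by 0.15. POU5F1 (0.01), NANOG (0.07), DNMT3B (-0.02) and CDH1 (0.12) did not pass. The count of 6 was 2 without DMSO library 1 and 3 without DMSO library 3.

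Of 29 naive genes, 7 rose (24.1%, against 6.15% of all genes) and 2 fell (6.9%, against 4.94%), and the median was 0.02. FGF4, a ligand of the pluripotent epiblast, was at 160, 162 and 167 CPM in DMSO, 204, 188 and 204 CPM under PROTAC and 241, 228 and 243 CPM under UNC. The 3 groups were separate, the rise was 0.41 (SE 0.0435, adjusted p = 2.07e-08), and the UNC effect of 0.54 exceeded the PROTAC effect of 0.28. KLF5 (0.29), DPPA5 (0.18), NODAL (0.16), NLRP7 (0.15) and KLF17 (0.17) rose with ARGFX, and KLF17 was at 0.29 under PROTAC and 0.05 under UNC. Both falls were of similar size under both compounds. ESRRB, an orphan nuclear receptor of the naive network, had 15.5, 17.2 and 11.3 CPM in DMSO, 10.9, 11.9 and 8.49 CPM under PROTAC and 10.8, 9.82 and 8.68 CPM under UNC. The treated and DMSO ranges of ESRRB overlapped, but within each experiment both treated libraries were below DMSO, and the log2 fold change was -0.53 (SE 0.0732, adjusted p = 3.59e-06). TBX3, a T-box repressor, changed by -0.61 (SE 0.117, adjusted p = 0.000461). TFCP2L1 (0.02), DPPA3 (-0.05) and SUSD2 (-0.14) did not pass. The 7 rises became 4 under library-size or upper-quartile scaling and without DMSO library 2, DMSO library 3 or UNC library 2, and the 2 falls became 5 without PROTAC library 1 and 1 without DMSO library 2.

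Of 31 genes of the primed and formative states, 6 rose (19.4%) and 8 fell (25.8%, against 4.94% of all genes), with a median of -0.10. ZIC2, a zinc-finger factor that marks primed cells, had 54.4, 49.1 and 50.6 CPM in DMSO, 43.4, 35.0 and 39.3 CPM under PROTAC and 37.1, 33.3 and 35.6 CPM under UNC. All treated libraries lay below DMSO, and the log2 fold change was -0.47 (SE 0.0491, adjusted p = 1.8e-08). Its neighbour ZIC5 (-0.65), OTX2 (-0.54), the phosphatase DUSP4 (-0.60), the Notch target HES1 (-0.72), vimentin (VIM, -0.20), SALL2 (-0.17) and CRABP1 (-0.17) also fell. In HES1 the UNC effect of -1.12 exceeded the PROTAC effect of -0.32. The rises were LEFTY2, an inhibitor of NODAL (0.48), SPP1 (0.41), FST, an antagonist of activin (0.34), PTPRZ1 (0.33), SFRP1 (0.27) and TCF7L2 (0.20). The 8 falls became 4 without DMSO library 2 or DMSO library 3 and 5 without PROTAC library 2 or UNC library 2.

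Genes of the trophoblast, the lineage of the placenta, gave the most falls of the 28 lists. Of 38 tested members, 19 fell (50%, against 4.94% of all genes) and 2 rose (5.26%, against 6.15%). The median log2 fold change was -0.42, with -0.17 under PROTAC and -0.63 under UNC. The regulators GATA3 (-0.98), TFAP2A (-0.75) and GATA2 (-0.57) fell, and their PROTAC effects were -0.45, -0.07 and -0.05, against -1.52, -1.44 and -1.08 under UNC. GATA3 averaged 2.29 CPM in DMSO, 1.69 CPM under PROTAC and 0.832 CPM under UNC. Other members belong to the syncytiotrophoblast, the fused layer of the placenta. ERVFRD-1, which encodes the fusion protein syncytin-2, had 0.470, 2.34 and 1.56 CPM in DMSO, 0.296, 0.951 and 0.757 CPM under PROTAC and 0.0673, 0.943 and 0.343 CPM under UNC. Libraries numbered 1 were the lowest in each group, the groups overlapped, and the log2 fold change was -1.47 (SE 0.235, adjusted p = 4.11e-05).

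Syncytin-1 (ERVW-1) changed by -0.76 (-0.63 under PROTAC and -0.90 under UNC) and its regulator GCM1 by -0.81 (-0.72 and -0.90). The hormone genes CGB3 (-1.27), CGB8 (-1.14), CSH2 (-0.99) and CSH1 (-0.71) fell. CSH1 was at -0.19 under PROTAC and -1.24 under UNC, and CSH2 at -0.31 and -1.68, differences that passed the test between compounds. The envelope genes ERVV-1 (-0.18 and -0.70) and ERVV-2 (-0.08 and -0.54) differed as well. CGB and CSH genes belong to families of near-identical copies, so their counts are uncertain. KRT8 (-0.21), KRT7 (-0.33) and ABCG2 (-0.40), which are expressed at higher levels, fell too. In all, 11 of the 21 called members had effects of similar size, and 13 of the 38 differed between the compounds. PEG10, an imprinted gene derived from a retrotransposon, rose by 0.38. The 5 trophoblast markers GATA3, GATA2, TFAP2A, KRT7 and CGA summed to 17.8 to 43.4 CPM in DMSO, 14.2 to 42.2 CPM under PROTAC and 9.73 to 25.2 CPM under UNC, and none was at 0 in all libraries. Their sum followed CGA, which varied from 1.55 to 24.6 CPM over the libraries. The part of such cells in the falls was not tested. Without DMSO library 3, 11 members fell, and without the block 0 of the 38 passed.

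Calls among genes of other lineages went in both directions, mostly at low levels, while the list medians were negative. The median log2 fold change was -0.33 for amnion genes, with -0.05 under PROTAC and -0.51 under UNC. It was -0.25 for streak and mesoderm genes (-0.10 and -0.30) and -0.17 for neural genes (-0.07 and -0.15). For endoderm genes it was -0.04 (0.07 and -0.16), against -0.01 over all genes. Of 16 amnion genes, 5 fell (31.25%, against 4.94% of all genes) and 2 rose (12.5%, against 6.15%). BMP4, the ligand that drives amnion and mesoderm, had 9.19, 9.41 and 9.90 CPM in DMSO, 16.9, 13.0 and 11.7 CPM under PROTAC and 17.9, 13.9 and 14.1 CPM under UNC. All treated libraries were above DMSO, and libraries numbered 1 showed the largest rise. The log2 fold change of BMP4 was 0.62 (SE 0.0814, adjusted p = 2.69e-06), 0.55 under PROTAC and 0.68 under UNC. GADD45G, a stress sensor, rose by 0.64. WNT6 (-0.91), the matrix protein tenascin (TNC, -0.71) and IGFBP3 (-0.60) fell, and TNC was at -1.38 under UNC and -0.04 under PROTAC.

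Of 22 genes of the primitive streak and mesoderm, TWIST1 rose (4.55%, against 6.15% of all genes) and 3 fell (13.6%, against 4.94%). TBXT, the streak factor brachyury, had 5.07, 4.43 and 6.98 CPM in DMSO, 5.11, 2.13 and 2.84 CPM under PROTAC and 2.21, 1.33 and 1.35 CPM under UNC. PROTAC library 1 lay within the DMSO range and the other treated libraries lay below it. The log2 fold change of TBXT was -1.26 (SE 0.184, adjusted p = 0.000721), and it overlaps the noncoding gene LNCDAT. EOMES, its relative among the T-box factors, changed by -0.97 and the cardiac factor NKX2-5 by -0.72. The markers TBXT, MIXL1 and EOMES summed to 6.74 to 9.90 CPM in DMSO, 3.69 to 7.94 CPM under PROTAC and 2.93 to 4.48 CPM under UNC, and what such cells contribute was not tested. Without the libraries numbered 1, 6 members fell.

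Of 17 endoderm genes, HNF4A (0.71), the repressor PRDM1 (0.36) and the laminin chain LAMB1 (0.30) rose, and the plasma protein genes APOA1 (-1.33) and TTR (-2.22) fell. The rises were 17.6% of the list (against 6.15% of all genes) and the falls 11.8% (against 4.94%). TTR was at 0.353 CPM or less in every library and at 0 in PROTAC library 1 and UNC libraries 1 and 2, so its fold change is poorly fixed. Neither APOA1 nor TTR was called in DESeq2 or without DMSO library 2. Of the hypoblast markers, GATA4 was at 4.09 to 7.16 CPM, PDGFRA at 0.392 to 1.32 CPM, SOX17 at 0.131 CPM or less and FOXA2 at 0.056 CPM or less. Of 24 neural genes, 2 rose (8.33%, against 6.15% of all genes) and 2 fell (8.33%, against 4.94%). The rises became 0 without DMSO library 3 and 1 without DMSO library 1, and the falls became 0 without DMSO library 1 or DMSO library 2 and 1 without UNC library 1 or in DESeq2. The homeobox gene NKX6-1 had 0.971, 1.33 and 0.778 CPM in DMSO, 1.66, 1.78 and 1.80 CPM under PROTAC and 1.64, 1.84 and 1.41 CPM under UNC, with no overlap. It rose by 0.70 (SE 0.174, adjusted p = 0.00654), and OLIG2 (-0.50) and NKX6-2 (-0.86) fell.

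HOX genes, the classic targets of Polycomb, gave 2 rises and 2 falls among 15 tested members of 39 in the list. Each was 13.3% of those tested, against 6.15% higher and 4.94% lower of all genes. The list's median log2 fold change was -0.31, with -0.14 under PROTAC and -0.55 under UNC. Of the 15, 10 had negative values and 7 were under 1 CPM in every library. HOXB2 had 15.3, 19.8 and 21.4 CPM in DMSO, 18.6, 24.3 and 25.5 CPM under PROTAC and 23.3, 31.2 and 36.2 CPM under UNC. It rose by 0.48 (SE 0.0588, adjusted p = 5.42e-07), more under UNC (0.67) than under PROTAC (0.28). HOXB1 rose by 0.21, and HOXD1 (-0.72) and HOXD4 (-0.52) fell. The 2 rises became 1 without any 1 of DMSO libraries 1 and 3, PROTAC library 1 and UNC libraries 2 and 3, and the 2 falls became 1 in DESeq2 and without any 1 library other than PROTAC library 3 and UNC library 1. Of 82 other homeobox, forkhead and T-box regulators, 6 rose (7.32%, against 6.15% of all genes) and 9 fell (10.98%, against 4.94%). In every library, 37 of the 82 were under 1 CPM. Among the rises were the craniofacial factor ALX1 (0.79), SHOX2 (0.70), SOX21 (0.69) and ONECUT2 (0.63). The falls were FOXD2 (-1.84), ALX4 (-1.37), FOXE1 (-1.27), PAX2 (-1.02), GSX2 (-1.0), FOXL2 (-0.75), PITX1 (-0.72), IRX4 (-0.45) and FOXI3 (-0.22). FOXD2 was at 0.531 CPM or less throughout. The 6 rises became 3 without DMSO library 1, and the 9 falls became 3 in DESeq2, 3 without DMSO library 2 and 5 without DMSO library 1. The chart of lists gives the counts side by side.

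**Figure D5:**
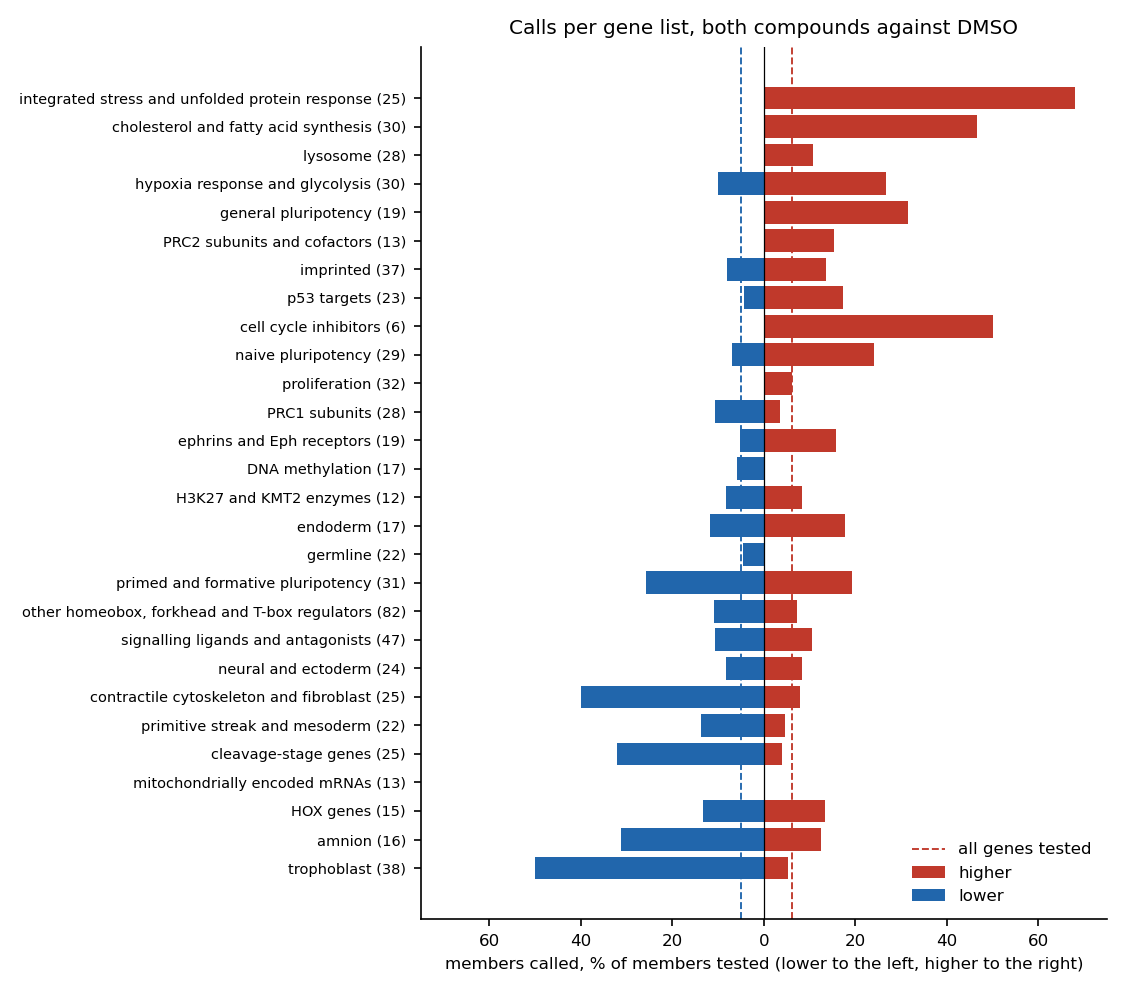
Percent of the tested members of each gene list called higher (to the right) and lower (to the left), with dashed lines at the shares over all genes tested (6.15% and 4.94%). The stress response list has 17 of 25 members higher, the sterol and fatty acid list 14 of 30 higher, and the trophoblast list 19 of 38 lower.

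The integrated stress response and the unfolded protein response had the largest share of rises. These programmes raise amino acid supply and protein folding capacity when translation or the endoplasmic reticulum is strained. Of 25 members, 17 rose (68.0%, against 6.15% of all genes) and 0 fell, and 23 were higher at an unadjusted p under 0.05. DESeq2 called 19 and limma-voom 18, and both called 0 lower. The median log2 fold change was 0.22, with 0.17 under PROTAC and 0.26 under UNC, and 16 of the 17 were of similar size. The median over members was positive in 6 of 6 pairs, between 0.17 and 0.39. TRIB3, a pseudokinase induced by ATF4, had 43.4, 56.3 and 52.9 CPM in DMSO, 47.7, 76.4 and 62.5 CPM under PROTAC and 52.1, 102 and 74.8 CPM under UNC. The libraries numbered 2 were the highest in each group and the groups overlapped, yet each treated library exceeded DMSO of its own number for PROTAC and UNC alike. TRIB3 rose by 0.41 (SE 0.0679, adjusted p = 0.000689).

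HSPA5, the main chaperone of the endoplasmic reticulum, had 529, 718 and 666 CPM in DMSO, 625, 952 and 758 CPM under PROTAC and 665, 1201 and 874 CPM under UNC. It rose by 0.38 (SE 0.0531, adjusted p = 7.88e-06). The chaperones HSP90B1 (0.24) and DNAJB9 (0.31), and XBP1 (0.21), the transcription factor of that response, rose with it. On the amino acid side, asparagine synthetase (ASNS, 0.32), the serine synthesis enzymes PSAT1 (0.30) and PHGDH (0.27), the mitochondrial folate enzymes MTHFD2 (0.18) and SHMT2 (0.15) and the cystine transporter SLC7A11 (0.34) rose. ATF4 itself rose by 0.15, CHAC1 by 0.33 and DDIT4 by 0.28. DDIT3 (0.10), ATF3 (0.15) and PPP1R15A (-0.01) did not pass. The count of 17 was 8 without the libraries numbered 2, in which TRIB3 and HSPA5 were highest, and 19 with the GC and length correction. Without the block 0 of the 25 passed.

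The synthesis of cholesterol and fatty acids formed another group of rises. Of 30 members, 14 rose (46.7%, against 6.15% of all genes) and 0 fell. At an unadjusted p under 0.05, 17 were higher and 0 lower. DESeq2 called 15 and limma-voom 14, again with 0 lower. The median was 0.15, and here PROTAC had the larger effect, 0.21 against 0.07 under UNC. MSMO1, a sterol methyl oxidase, had 186, 300 and 191 CPM in DMSO, 254, 376 and 297 CPM under PROTAC and 205, 384 and 242 CPM under UNC. DMSO library 2 was above several treated libraries, and within experiments all 6 treated libraries exceeded DMSO. MSMO1 rose by 0.38 (SE 0.0515, adjusted p = 7.47e-06). STARD4, a sterol carrier (0.29), INSIG1, the brake on sterol sensing (0.29), CYP51A1 (0.28), SQLE (0.27), HMGCS1 (0.26) and IDI1 (0.23) rose. HMGCS1 was at 0.37 under PROTAC and 0.16 under UNC, a difference that passed (adjusted p = 0.037). Without DMSO library 3, 8 members rose, without DMSO library 2, 9 rose, and without the block 0 of the 30 passed.

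Of 30 genes of hypoxia and glycolysis, 8 rose (26.7%, against 6.15% of all genes) and 3 fell (10%, against 4.94%). The collagen hydroxylases P4HA1 (0.39) and P4HA2 (0.25), the endoplasmic reticulum oxidase ERO1A (0.31), BNIP3 (0.23) and the oxygen sensor EGLN1 (0.22) rose. So did the glycolytic genes LDHA (0.21), PGK1 (0.18) and GPI (0.14), while the glucose transporter SLC2A1 (-0.25), PFKFB3 (-0.22) and HK1 (-0.17) fell. The mean of PFKFB3 came from UNC (-0.47, against 0.03 under PROTAC). Its entry overlaps another entry of the same gene, so reads may be divided between them. P4HA1 had 74.7, 76.2 and 58.5 CPM in DMSO, 92.4, 90.6 and 86.9 CPM under PROTAC and 104, 103 and 73.6 CPM under UNC. UNC library 3 lay within the DMSO range and the other treated libraries lay above it. ERO1A stood at 0.28 under PROTAC and 0.33 under UNC. Without DMSO library 3, 4 members rose, and without DMSO library 1, 5 rose.

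The cyclin-dependent kinase inhibitors CDKN1C (0.40), CDKN1B (0.20) and CDKN1A (0.20) rose, which is 3 of the 6 cell cycle inhibitors tested (50%, against 6.15% of all genes). Without all libraries numbered 2, 1 of them passed. CDKN2A, a textbook target of Polycomb, was at 0.581 CPM in DMSO and 0.507 CPM in treated libraries on average and did not pass (-0.25). CDKN1C, which is imprinted, had 21.9, 29.5 and 19.8 CPM in DMSO, 26.7, 39.9 and 28.7 CPM under PROTAC and 24.4, 41.8 and 28.2 CPM under UNC. It rose within all 3 experiments under both compounds (SE 0.0598, adjusted p = 1.64e-05). Of 32 proliferation genes, CDK1 (0.17) and CDT1 (0.13) rose (6.25%, against 6.15% of all genes) and 30 did not pass. Of 23 targets of p53, 4 rose (17.4%, against 6.15% of all genes), led by SESN1 (0.23) and CDKN1A. BTG2 fell (-0.32), with -0.57 under UNC and -0.07 under PROTAC. Without DMSO library 2 or DMSO library 3, 1 target rose, and without UNC library 2, 2 rose.

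Of 25 genes of the contractile cytoskeleton and of fibroblasts, 10 fell (40%, against 4.94% of all genes) and 2 rose (8%, against 6.15%). The list's median log2 fold change was -0.02 under PROTAC and -0.32 under UNC, against -0.01 for each over all genes tested. COL1A1, a chain of type I collagen, had 103, 91.4 and 66.4 CPM in DMSO, 72.6, 71.5 and 60.3 CPM under PROTAC and 51.1, 49.3 and 33.8 CPM under UNC. Every UNC library lay below every other library, and the PROTAC and DMSO ranges overlapped. COL1A1 changed by -0.65 (SE 0.0505, adjusted p = 4.23e-11), -0.34 under PROTAC and -0.96 under UNC. The smooth muscle genes TAGLN (-0.69) and MYL9 (-0.51), the matrix genes MMP2 (-0.50) and THBS1 (-0.44), CCN1 (-0.27), TPM1 (-0.24), TPM2 (-0.18), CALD1 (-0.18) and COL1A2 (-0.18) fell. COL6A1 (0.46) and fibronectin (FN1, 0.20) rose. Of these 12 called members, 6 had effects of similar size, and 13 of the 25 differed between the compounds. Without the block, 1 member was called lower (MMP2) and 1 higher (COL6A1). Naive stocks of the line were kept on irradiated mouse embryonic fibroblasts before plating on Geltrex. Of the fibroblast markers, LUM was at 0 in all 9 libraries, COL3A1 at 0.042 CPM or less and DCN at 0.0289 CPM or less, and COL1A1 made up nearly the whole of their sum.

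The smaller lists gave few calls, and several of these counts moved by over 1.5 times when 1 library was left out. The 3 rises among ephrins became 1 without DMSO library 3, the 5 among imprinted genes 3 without DMSO library 2 and the 3 among lysosomal genes 1 without DMSO library 2. Among 19 ephrins and Eph receptors, EFNA5, EFNA4 (0.30) and EPHB4 (0.14) rose and EPHB6 (-0.39) fell. These were 15.8% and 5.26% of the list, against 6.15% and 4.94% of all genes. Among 37 imprinted genes, 5 rose (13.5%), led by CDKN1C and PEG10, and 3 fell (8.11%). The falls were the noncoding RNAs H19 (-0.35), MEG3 (-0.22) and MEG8 (-0.16). PEG10 had 109, 148 and 99.4 CPM in DMSO, 168, 186 and 136 CPM under PROTAC and 146, 169 and 120 CPM under UNC, and its neighbours SGCE (0.29) and PPP1R9A (0.35) rose as well. SGCE overlaps PEG10, so reads of this pair may be shared. Of 28 lysosomal genes, the proton pump subunit ATP6V1A (0.26), FNIP2 (0.28) and PSAP (0.13) rose (10.7%, against 6.15% of all genes). Of 47 signalling ligands and antagonists, 5 rose and 5 fell (10.6% each, against 6.15% and 4.94% of all genes). FGF13 (0.40), FGF19 (0.38), WNT5B (0.34) and the stress-induced INHBE (0.51) rose with BMP4, and WNT6, the BMP antagonist GREM1 (-1.0), GDF7 (-0.57), FGF18 (-0.51) and SFRP5 (-0.41) fell. Without DMSO library 3, 1 ligand fell.

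TET2, an enzyme that oxidises methylated cytosine (-0.53), was the call among 17 genes of DNA methylation, and SYCP2, a protein of the synaptonemal complex (-0.66), that among 22 germline genes. These falls were 5.88% and 4.55% of their lists, against 4.94% of all genes. The TET2 call was lost without DMSO library 1, DMSO library 2 or UNC library 2. All 13 messenger RNAs of the mitochondrial genome had negative log2 fold changes, with a median of -0.28. The median was -0.39 under PROTAC and -0.16 under UNC, and UNC library 3 against DMSO library 3 gave a median of 0.14. In edgeR 0 of the 13 passed, 5 were lower at an unadjusted p under 0.05, DESeq2 called 0 and limma-voom called 11. Leaving out UNC library 3 gave 10 calls and leaving out PROTAC library 2 gave 9, so single libraries decide that count.

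Some calls of the averaged comparison were not common to both compounds. Of 25 genes of the cleavage-stage embryo, 8 fell (32%, against 4.94% of all genes) and 1 rose (4%, against 6.15%). Of these 9, 0 had effects of similar size. The 8 falls became 3 without DMSO library 2 or DMSO library 3 and 4 without PROTAC library 2, and the 1 rise was lost under library-size and upper-quartile scaling and without any 1 of DMSO libraries 1 and 2, PROTAC libraries 1 and 2 and the 3 UNC libraries. The list's median was 0.23 under PROTAC and -0.79 under UNC. H3Y1, a histone H3 variant of that stage, had 37.2, 31.7 and 26.8 CPM in DMSO, 51.3, 33.0 and 29.8 CPM under PROTAC and 22.4, 15.02 and 11.3 CPM under UNC. Within each experiment its PROTAC library was above DMSO and its UNC library below, and its mean change of -0.39 describes neither. SLC34A2, a phosphate transporter, was likewise at 0.14 under PROTAC and -0.95 under UNC. CD53, a tetraspanin of leukocytes, passed with a mean of 0.44 that came from UNC (0.87, against 0.00 under PROTAC).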

How the data were processed

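RNA sequencing measured transcripts in 9 libraries of HNES1 cells, 3 per group. Per the labels' protocols, libraries were made with a Watchmaker kit and ribosomal RNA depletion, although the molecule field reads polyA RNA. Per the submitters' processing notes, the tools were Trim Galore 0.6.10 and HISAT2 2.2.1 with GRCh38. Which program counted the reads, with which annotation and strand setting, is not given in the sources used here. For 56312 entries the authors deposited raw read counts. The 5 entries without an identifier, among them the PFKFB3 entry reported here, were not removed.

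Groups and numbers came from the sample titles. Counts were fitted with edgeR 4.0.16 in R 4.3.3, which was checked on simulated data: scaling by TMM, filterByExpr on the groups, a robust quasi-likelihood fit of all libraries by group and replicate number, and two-sided tests with Benjamini-Hochberg adjustment over 24187 genes at 0.05. Every adjusted p is from this fit unless named otherwise. Depth was 31651742 to 101081643 counts, the median standard error of a log2 fold change was 0.0963, and pairs of libraries of a group differed beyond counting noise (chi-square over degrees of freedom 10.5 to 34.4). The numbers pair the libraries: 9 correlations of same-number deviations were 0.106 to 0.472, and 18 of different numbers were -0.324 to 0.0753. Deviations within a group cancel out, so these sets of correlations are not independent. Pair differences used log2 CPM with a prior count of 2.

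Named genes were EED, EZH2, EZH1 and SUZ12, the 12 leading rises and falls described in the text, up to 2 rises and 2 falls per list, and 4 genes in each direction that differed most between the compounds. Other list members were named after their values were seen, and a few genes are not reported here. The comparison, 28 lists and rules were chosen with earlier results of these data known. GC content used the longest GENCODE 29 transcript, matched for 84.9% of tested genes, and promoters came from RefSeq. Alternatives were DESeq2 1.42.0, limma-voom (limma 3.58.1), scaling by RLE, by upper quartiles or by library size alone, other filters, thinned counts, stricter thresholds, no block, and each library or number left out.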

Additional observations from a re-analysis of the deposited data

Results flagged for a closer look

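The 33 genes below were taken by the rule for named genes, which includes the largest differences between the compounds, and differed between the compounds in edgeR's test of PROTAC against UNC in the fit with the replicate block. That difference compares no DMSO library, although its spread was estimated from all 9 libraries. The doses differed (2.5 µM and 1 µM), and without the block the same test called 2 genes of all those tested. Values are log2 differences, PROTAC minus UNC. Other genes that the text describes outside that rule, among them SMARCA2, DACT1, GATA2, CSH1 and CSH2, differed too and are not repeated.

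Among genes that rose on average, UNC stood higher than PROTAC for RGS4, an inhibitor of G protein signalling (-1.02), CTNNA3 (-0.88), CD53 (-0.87) and UNC93A (-0.75). The same held for the leading rises DSG3 (-0.62), ARGFX (-0.55), HNF4A (-0.54) and FAM13A (-0.42). It held for HOXB2 (-0.40), KDM6B (-0.27), FGF4 (-0.26), the chaperone HSPA5 (-0.21) and COL6A1 (-0.20). KLF17 (0.24) rose on average and stood higher under PROTAC.

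Among those of the 33 that fell on average, all were lower under UNC than under PROTAC. Differences over 1.3 among the 33 were in GREM1, a BMP antagonist (1.69), FRG2C (1.67), TRIM48 (1.48), LNCDAT (1.41) and the matrix gene TNC (1.34). FRG2C and TRIM48 have close copies in the genome, and LNCDAT overlaps TBXT (1.05), so reads may be shared. H3Y1 (1.24), CSMD1 (1.16), SLC34A2 (1.08), WNT6 (0.97), TAGLN (0.96), HES1 (0.80), NPAS4 (0.79), COL1A1 (0.62), PFKFB3 (0.51), BTG2 (0.50), EPHB6 (0.50), H19 (0.37) and SLC2A1 (0.21) followed.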

How the results depend on the processing

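The number of calls rested on the replicate block: without it 15 genes were higher and 13 lower, 15 and 11 of them of similar size in both compounds, and PROTAC against UNC called 2. At a false discovery rate of 0.01 the counts were 765 higher and 534 lower (730 and 403 of similar size) and 411 for PROTAC against UNC. Among genes past 2-fold they were 15 and 76 (15 and 69 of similar size), and with no overlap between libraries 599 and 324. Leaving out 1 library gave 671 to 1385 higher, 537 to 1063 lower, 647 to 1313 and 428 to 855 of similar size, and 353 to 924 for PROTAC against UNC. Leaving out 1 number gave 500 to 1189, 404 to 1051, 481 to 1105, 324 to 828 and 319 to 731. Fewer samples were fitted there. For the rest, the cause was not tested. The other scalings, filters, tools and thinned counts kept all 5 counts within 1.5 times, and 0 of the calls that a fit tested again (at least 2526 of the 2684) changed sign. Of the named genes, EZH1 (-0.05) ran from -0.114 to 0.0646 when 1 library or number was left out, and with the GC and length correction, added after seeing the data, EED turned to -0.0291 and SUZ12 to -0.000289. None of these 3 was called. The median standard error was 0.478 at 0.1 to 0.3 CPM and 0.0447 at 100 CPM and above, so small changes of rare transcripts were not detectable at this depth. Of the 105 named genes, 66 kept their side of the threshold and direction without number 2, and 8 without the block. The 8 were ARGFX, DSG3, LINC01500, COL6A1 and FGF4, which stayed called, and EED, EZH1 and SUZ12, which were called in neither fit.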
